A study of Mus musculus with 12 samples.

Results

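The wild-type pair of the RNA series set 1 library of T-positive cells from mouse embryos against 1 library of T-positive cells from culture. The pair makes up 2 of the 5 RNA libraries and 2 of the 12 samples of the series. It was taken by its labels, and no measured value chose it. The embryo library came from wild-type embryos at Theiler stages TS12/TS13, the stages at which the first somites form, on the strain background 129S2/C57Bl6J. The cultured library, titled T_wt_Day4, came from Day 4 of an in vitro differentiation of mouse embryonic stem cells of the strain 129S2/C57Bl6J. Feeder cells had been removed, the stem cells had been aggregated in hanging drops, and the aggregates had been plated on fibronectin in serum-free medium with BMP4 at 20 ng/mL for 18 hours. WNT3A and FGF8, each at 40 ng/mL, replaced BMP4 for the rest of the culture. Flow cytometry had isolated the T-positive (Brachyury-positive) cells of both. The sources used here do not give the reagent or allele that reports T. The other 3 RNA libraries carry T_Y88A, the mutant of the series, as 1 embryo library of TS12, 1 embryo library of TS13 and 1 Day 4 library. They share no library with the wild-type pair and are shown beside it.

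T is a T-box transcription factor that is switched on in the primitive streak, where epiblast cells leave the epithelium and become mesoderm and endoderm. Early in gastrulation the streak is formed by epiblast cells that still express pluripotency genes. Later, at the stages when somites form, T is kept in the tail-end progenitors that feed the spinal cord and the paraxial mesoderm. Cells at that later position also express CDX factors and Hox genes, which are activated in the order of their paralog groups and record the position of a cell along the head-to-tail axis. A gene list for each of these states was therefore read in the pair, to ask which embryonic stage and which axial position the Day 4 cells resemble. The lists were chosen with earlier results of these data known. Their counts and medians therefore describe the pair and do not test a stage or a position.

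Levels are FPKM, fragments counted per unit of gene length and scaled to the library's total, which allows levels of different genes to be set side by side. Differences are Day 4 minus embryo on the scale log2(FPKM + 1), and a gene is called at least 2-fold higher or lower where this difference reaches 1, which understates the fold of genes at low levels. Of 23421 gene symbols, 11680 averaged 1 FPKM or more over the pair and were not small RNA genes. The gene just inside that limit was Cfp, with a mean of 1.00036 FPKM, and the gene just outside it was Tnfrsf14, with 0.999747 FPKM. With 1 library a side there was no test, no spread and no standard error, and every difference below is between 2 libraries. The sources used here do not give how many embryos or cultures each library pooled. A gene that passed the limit on the level of 1 library alone had to differ, so the counts of list members below are descriptions, to be read beside the same counts over all genes. From the steps between the lowest values, the Day 4 library was 1.04 times as deep as the embryo library, while the absolute depth of both is unknown.

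The column of the embryo library is named with the same first letters as the T_Y88A columns, so its genotype rests on its label. Rian, a noncoding RNA of the imprinted Dlk1-Dio3 domain, stood at 55.0 FPKM in that library and at 74.0 FPKM in the wild-type Day 4 library. In the T_Y88A libraries it stood at 0.953 in TS12, 0.602 in TS13 and 0.968 at Day 4, so the pair labelled wild type shared this level across embryo and culture. The series text equates T_het with wild type, and whether the libraries labelled wild type are heterozygous for a T allele is not given.

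Across the 11680 genes, 74.5% were within 2-fold of each other in the pair. Day 4 was at least 2-fold higher for 1662 genes (14.2%) and at least 2-fold lower for 1321 genes (11.3%), together 25.5%, with a median difference of 0.00. The log2 levels correlated across genes with r = 0.838 between the 2 wild-type libraries. Against the same embryo library the T_Y88A embryo libraries gave r = 0.974 and 0.976, over the same genes, which are not independent replicates. Embryo and culture thus lay further apart than the embryo libraries of different genotype. Between the T_Y88A embryos and T_Y88A Day 4, libraries outside the pair, 1225 (73.7%) of the genes higher at wild-type Day 4 and 902 (68.3%) of those lower again differed 2-fold or more with the same sign. The share of all genes compared that differed 2-fold in T_Y88A was not counted, so these shares have no base rate beside them. With the wild-type pair counted in, both Day 4 libraries lay above all 3 embryo libraries in 1605 of the genes higher at Day 4 (13.7% of genes compared) and below all 3 in 1248 of the genes lower at Day 4 (10.7%). Without a limit on size, 34.3% and 34.5% of genes compared had this order of libraries.

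**Figure D1:**
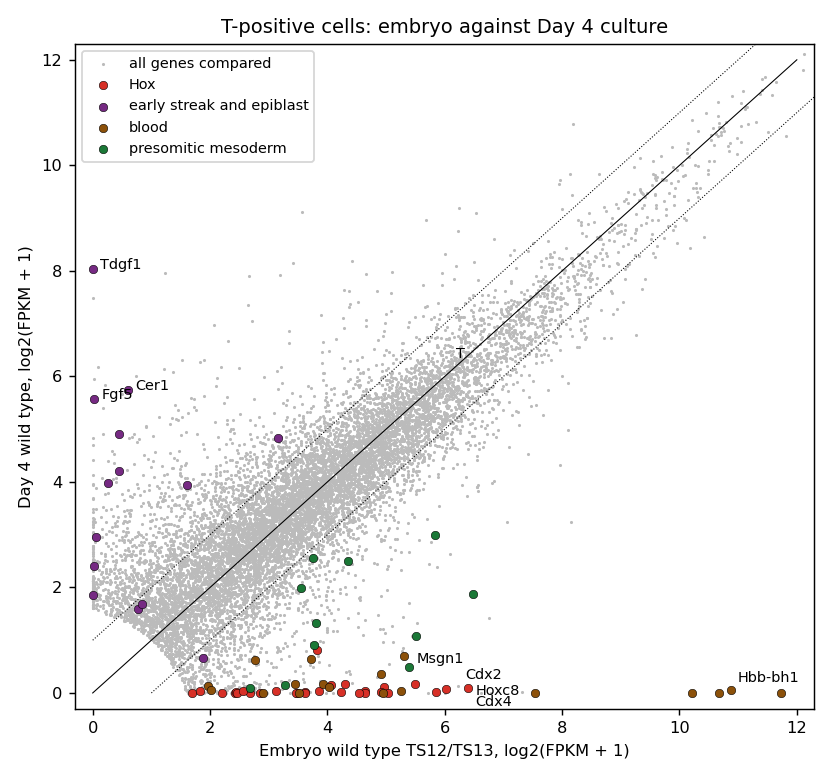
Each point is a gene compared, with its log2(FPKM + 1) in the wild-type embryo library on the horizontal axis and in the wild-type Day 4 library on the vertical axis. The solid line marks equal levels and the dotted lines a 2-fold difference; T lies on the solid line, while the Hox and blood genes that passed the filter lie along the bottom and most early streak and epiblast genes above the upper dotted line.

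T itself (chr17:8434423-8442496, mm10) stood at 65.9 FPKM in the wild-type embryo library and at 72.9 FPKM in the wild-type Day 4 library. In the T_Y88A libraries it stood at 69.8 in TS12, 26.99 in TS13 and 32.5 at Day 4. The wild-type levels of T differed by 0.14 on the log2 scale, so the sorted gene matched while much of its usual company did not. Of 6 genes read as markers of T-positive early mesoderm, which include T, the streak growth factor Fgf8 stood at 13.1 FPKM in the embryo and 26.5 at Day 4. The other 4 were near 0 at Day 4. Tbx6, needed for paraxial mesoderm, stood at 0.879 FPKM, Msgn1, a regulator of presomitic differentiation, at 0.409, Mixl1, a homeobox gene of the streak, at 0.588 and Cdx2 at 0.0974. Mixl1 was low in the embryo library too, at 2.67 FPKM.

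**Figure D2:**
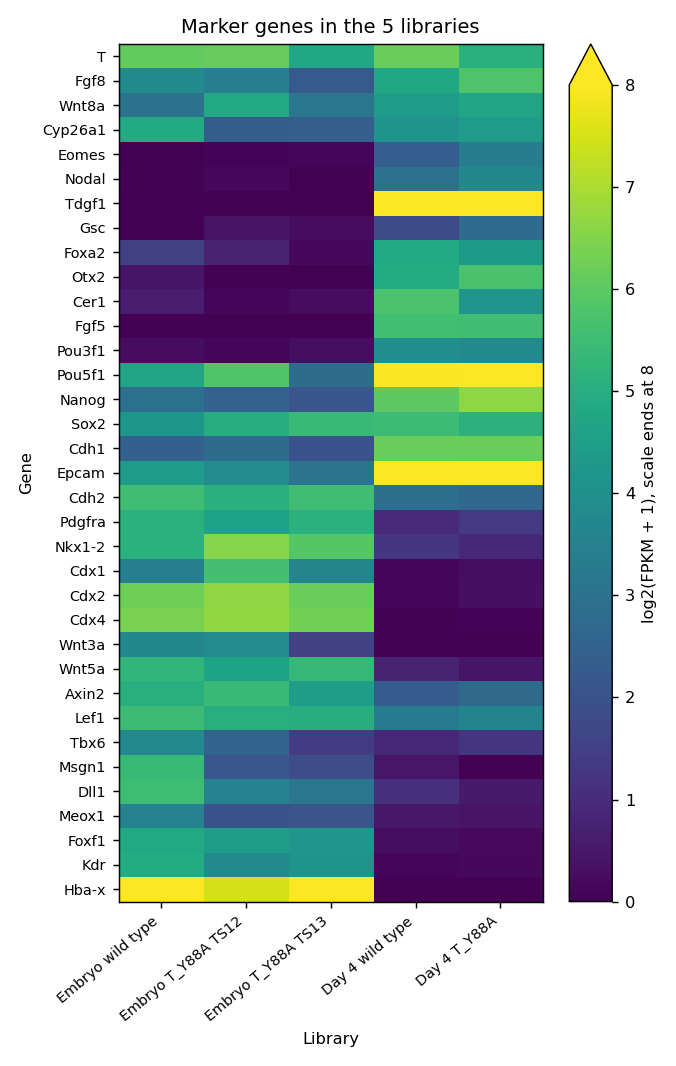
Colour gives log2(FPKM + 1) of 35 marker genes (rows) in each of the 5 libraries (columns), with the scale ending at 8. T is present in all 5 columns, the block from Eomes to Pou5f1 is brighter in the Day 4 columns, and the block from Nkx1-2 to Hba-x is brighter in the embryo columns.

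The CDX factors, homeodomain proteins that set tail-end identity and activate Hox genes, were at the bottom of the scale in culture. Cdx2 (chr5:147300900-147307249) stood at 73.8 FPKM in the wild-type embryo library and at 0.0974 FPKM in the wild-type Day 4 library. Its level was 101 in T_Y88A TS12, 72.3 in T_Y88A TS13 and 0.250 in T_Y88A Day 4. Cdx4 (chrX:103321398-103330224) stood at 83.5, 102 and 79.9 FPKM in the embryo libraries of wild type, T_Y88A TS12 and T_Y88A TS13, against 0.0436 and 0.0612 in the Day 4 libraries of wild type and T_Y88A. Cdx1 stood at 9.97 FPKM in the wild-type embryo and 0.0928 in the wild-type Day 4 library. For all 3 genes, every embryo library lay above every Day 4 library.

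The promoters of T, of Cdx2 and Cdx4 and of Fgf5 are shown because these genes hold the contrast of the pair, with T at like levels on the 2 sides, Cdx2 and Cdx4 high in the embryo and Fgf5 high in culture. The 250 bases before the RefSeq start site (build GRCm38.p6, the mm10 assembly) are written 5′ to 3′ on the strand of the gene, with capitals for the octamer bound by POU factors (ATGCAAAT) and the core of the TCF/LEF site (CTTTGA), each searched on both strands.
T, chr17:8434173-8434422, plus strand: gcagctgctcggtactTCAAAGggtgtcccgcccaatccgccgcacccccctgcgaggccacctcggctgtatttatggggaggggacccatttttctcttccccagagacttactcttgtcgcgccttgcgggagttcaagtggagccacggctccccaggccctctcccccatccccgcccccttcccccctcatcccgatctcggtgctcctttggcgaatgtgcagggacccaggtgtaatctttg
Cdx2, chr5:147307250-147307499, minus strand: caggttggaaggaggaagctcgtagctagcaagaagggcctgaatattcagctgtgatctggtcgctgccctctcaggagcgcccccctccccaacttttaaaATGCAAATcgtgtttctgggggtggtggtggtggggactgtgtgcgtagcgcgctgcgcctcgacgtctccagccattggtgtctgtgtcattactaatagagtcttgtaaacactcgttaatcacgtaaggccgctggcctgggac
Cdx4, chrX:103321148-103321397, plus strand: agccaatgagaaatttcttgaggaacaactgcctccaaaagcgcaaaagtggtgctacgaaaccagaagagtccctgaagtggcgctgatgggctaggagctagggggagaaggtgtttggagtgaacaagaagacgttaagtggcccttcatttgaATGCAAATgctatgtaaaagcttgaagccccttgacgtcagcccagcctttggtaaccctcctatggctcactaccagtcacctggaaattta
Fgf5, chr5:98253934-98254183, plus strand: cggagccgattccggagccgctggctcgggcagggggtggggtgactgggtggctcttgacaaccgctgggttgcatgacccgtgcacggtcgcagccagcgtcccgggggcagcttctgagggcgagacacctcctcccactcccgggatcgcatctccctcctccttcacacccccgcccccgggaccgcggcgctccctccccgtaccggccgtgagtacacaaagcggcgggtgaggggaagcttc

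Cdx2 and Cdx4 each held 1 octamer, beginning 147 and 93 bases before the start, while 1.6% of 32851 promoters of that length hold it. The T promoter held 1 TCF/LEF core, 234 bases before the start, a motif found in 13.8% of promoters. It also held 1 core of the CDX site (TTTATG), 178 bases before the start, against 10.8% of promoters. These 3 motifs do not overlap one another in the T, Cdx2 or Cdx4 windows, and none of the 3 was in the Fgf5 window. The genes and motifs were picked with their levels known, and a match describes letters, not a bound site. Pou5f1, the POU factor of pluripotent cells, and Lef1, a factor that binds the TCF/LEF site, are given with their levels below.

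Hox genes, which record axial position, were present across most paralog groups in the embryo and near 0 in culture. Of 39 Hox genes, 30 stood at 1 FPKM or more in the wild-type embryo library and 0 did so in the wild-type Day 4 library. The counts were 28 in T_Y88A TS12, 28 in T_Y88A TS13 and 1 in T_Y88A Day 4. Summed over the 39 genes, the level was 581 FPKM in the wild-type embryo and 1.62 FPKM at Day 4, where 19 of the genes were listed at 0. Each of the 29 Hox genes that passed the filter was at least 2-fold lower at Day 4, beside 11.3% of all genes. They passed on their embryo level alone, and so had to differ. Their median difference was -3.71 over 12 genes of paralog groups 1 to 4, -4.06 over 14 genes of groups 5 to 9 and -1.80 over 3 genes of groups 10 to 13.

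The embryo library filled the paralog groups from the head end up to group 9. Group 1, the first to be activated, stood at 13.49 FPKM for Hoxb1 and 23.9 for Hoxd1. Hoxc8 (chr15:102990539-102994275), a gene of the thoracic level, was the highest Hox gene of the wild-type embryo at 83.5 FPKM, against 0.0686 at Day 4. Its T_Y88A levels were 65.4 in TS12, 91.8 in TS13 and 0.0618 at Day 4. In group 9, Hoxb9 stood at 64.3 FPKM, Hoxa9 at 56.4, Hoxc9 at 22.2 and Hoxd9 at 4.91. The levels dropped between groups 9 and 10. Hoxa10, Hoxc10 and Hoxd10, genes of the lumbar level, stood at 3.59, 2.24 and 2.56 FPKM. Group 11 reached at most 0.536 FPKM, group 12 was listed at 0, and Hoxd13 alone of group 13 exceeded 1 FPKM, at 1.53.

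At Day 4 the order of the groups could not be read, since 0 Hox genes reached 1 FPKM in the wild-type library. Hoxb1 stood at 0.0223 FPKM there, Hoxd1 at 0.0249 and Hoxb3 at 0.130. A pair of noncoding genes on chromosome 6, which also carries the HoxA cluster, showed the same split. Mira stood at 97.3 FPKM in the wild-type embryo, 82.3 and 80.6 in T_Y88A TS12 and TS13, and was listed at 0 in both Day 4 libraries. The symbol 2700086A05Rik stood at 63.3 FPKM in the wild-type embryo and was listed at 0 in both Day 4 libraries too.

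**Figure D3:**
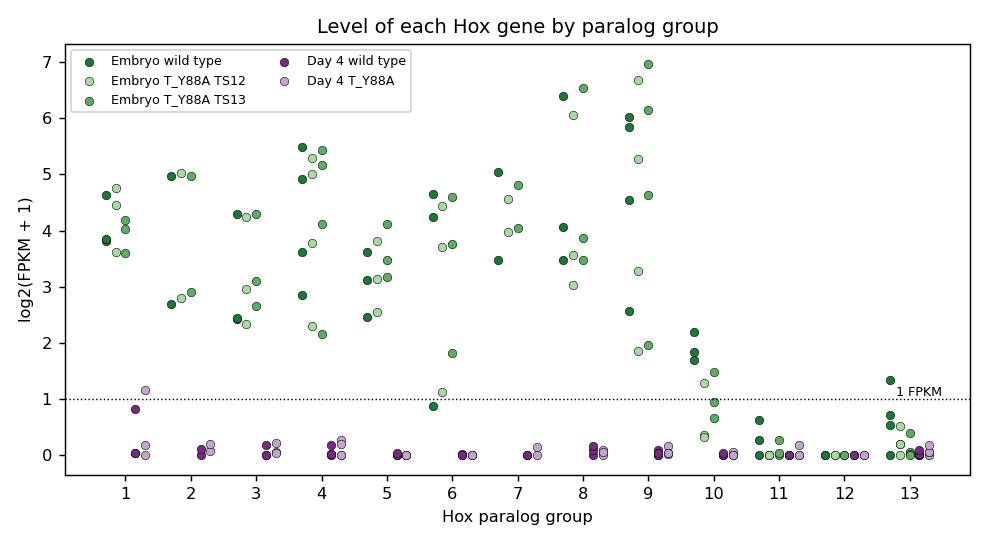
Each point is a Hox gene in a library, with its paralog group on the horizontal axis and log2(FPKM + 1) on the vertical axis; the dotted line is 1 FPKM. The 3 embryo libraries (greens) fill groups 1 to 9 and drop from group 10 on, while the 2 Day 4 libraries (purples) stay low throughout, with 1 point of T_Y88A Day 4 above the line.

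A head-end gene showed the reverse. Otx2, a homeobox gene of the epiblast that later marks forebrain and midbrain, stood at 0.362 FPKM in the wild-type embryo and 29.2 at Day 4. It reached 50.6 FPKM in T_Y88A Day 4 and at most 0.0370 FPKM in the T_Y88A embryos. Gbx2, which is expressed on the tail-end side of the boundary between midbrain and hindbrain and in the caudal epiblast, stood at 18.9 FPKM in the embryo and 0.317 at Day 4. Otx2 and Gbx2 thus stood in opposite order in the 2 libraries.

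Among the genes of the caudal epiblast and the axial progenitors, 13 of 19 compared were at least 2-fold lower at Day 4, beside 11.3% of all genes. In this list 1 gene was higher, beside 14.2%, and the median difference was -2.55. Nkx1-2, a marker of the progenitors that give both neural tube and paraxial mesoderm, stood at 33.2 FPKM in the embryo and 1.40 at Day 4. It was higher still in T_Y88A, at 91.9 in TS12 and 58.7 in TS13, against 0.846 at Day 4. The ligands went both ways. Wnt3a, the WNT ligand of the tail-end streak, stood at 12.1 FPKM in the embryo and 0.00844 at Day 4, and Wnt5a, which drives axis elongation, at 37.4 and 0.728. Wnt5b stood at 30.7 and 1.21, and Fgf3 at 5.71 and 0.0389. Wnt8a, a WNT ligand of the early streak, went the other way, at 6.91 FPKM in the embryo and 20.6 at Day 4. The T_Y88A TS12 library had 27.9 FPKM of Wnt8a, so its embryo and Day 4 ranges overlapped.

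Fgf8 lay 0.96 higher on the log2 scale at Day 4, just under the limit of 1, and Fgf4, also a streak FGF, stood at 1.70 and 3.84 FPKM. Sall4, a zinc finger factor shared by pluripotent and caudal cells, was level at 44.5 and 40.2 FPKM. Cyp26a1, which breaks down retinoic acid in the streak and tail, stood at 28.8 FPKM in the embryo and 16.5 at Day 4. Fgf8, Fgf4 and Wnt8a are known from the streak at its first appearance, whereas Cdx, Nkx1-2, Wnt3a and Wnt5a are known from the later streak and tail. All of them are members of the same list, parted here with their levels known, so no stage is read from the parting. Fgf8 and Wnt8a were present in the wild-type embryo too, at 13.1 and 6.91 FPKM.

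Presomitic mesoderm, the unsegmented tissue that T-positive progenitors feed, was represented in the embryo and close to empty in culture. Each of the 11 of 16 listed genes that passed the filter was at least 2-fold lower at Day 4 (median -2.85), beside 11.3% of all genes, and the other 5 were under the filter. Tbx6 stood at 12.6 FPKM in the wild-type embryo and 0.879 at Day 4, with 4.79, 1.602 and 1.39 in T_Y88A TS12, TS13 and Day 4. Msgn1 stood at 41.1 and 0.409 FPKM in the wild-type pair, and at 3.48, 2.71 and 0 in the same T_Y88A libraries. The T_Y88A embryo values for both genes lay below the wild-type embryo, so the wild-type pair was further apart than the T_Y88A libraries.

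Of the NOTCH ligands of this tissue, Dll1 stood at 44.3 FPKM in the embryo and 1.12 at Day 4, and Dll3 at 12.5 and 4.91. The oscillating repressor Hes7 stood at 5.38 and 0.0722 FPKM, and Lfng, which modifies NOTCH in the segmentation clock, at 10.8 and 2.99. Rspo3, a secreted amplifier of WNT signalling, kept a part of its level, at 56.2 FPKM in the embryo and 6.94 at Day 4. Cited1, a transcriptional co-regulator, stood at 88.4 and 2.66 FPKM. Mesp2, which sets the next somite boundary, stood at 0.128 FPKM or less in all 5 libraries. Presomitic genes were thus present in the embryo sort, while Mesp2, a gene of the segment border, was near 0 there too.

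The 15 somite genes summed to 40.7 FPKM in the embryo and 6.74 at Day 4. Only 5 passed the filter, of which 4 were at least 2-fold lower at Day 4, beside 11.3% of all genes. Meox1, a homeobox gene of the early somite, stood at 10.6 and 0.420 FPKM, Foxc1 at 17.2 and 2.02, and Tcf15, which makes somites epithelial, at 5.26 and 1.77. In T_Y88A, Tcf15 had the reverse order, at 0.548 in TS12, 0.346 in TS13 and 3.09 at Day 4. Pax1, Uncx, Nkx3-2 and Myf5, genes of formed and patterned somites, were at or under 0.219 FPKM in both libraries.

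Lateral plate, cardiac and intermediate mesoderm genes were present in the embryo sort and near 0 in culture. Of 15 compared, 12 were at least 2-fold lower at Day 4 and 1 was higher (median -2.47), beside 11.3% and 14.2% of all genes. Foxf1, a forkhead factor of the lateral plate, stood at 27.8 FPKM in the wild-type embryo and 0.239 at Day 4. Hand2 stood at 16.0 FPKM and was listed at 0 at Day 4, and Osr1 stood at 13.6 and 0.0115. Hand1, which is also known from extraembryonic mesoderm, stood at 12.2 and 0.929 FPKM. The gene that was higher, Bmp2, stood at 1.64 and 11.01 FPKM. Bmp4, a ligand of the streak's tail end and the lateral plate, stood at 21.2 and 3.002. In a sorted bulk sample, fewer cells of a type and less RNA per cell cannot be told apart, here or below.

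Genes of the epiblast and of the early streak stood high in culture. Of 14 compared, 11 were at least 2-fold higher at Day 4, beside 14.2% of all genes, and 1, Mixl1, was lower (median 2.64). Of the 16 listed, 4 reached 1 FPKM in the embryo library and 13 in the Day 4 library. Fgf5 (chr5:98254184-98277033), a growth factor of the post-implantation epiblast, stood at 0.0200 FPKM in the wild-type embryo and 46.5 at Day 4. In T_Y88A it stood at 0.0133 in TS12, 0.0206 in TS13 and 45.3 at Day 4. Pou3f1, a POU factor of the epiblast, stood at 0.200 and 14.8 FPKM in the wild-type pair. No embryo library came near the Day 4 levels of these genes.

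NODAL signalling induces the streak and its mesendoderm, and its genes given here are members of other lists, since no list of that pathway was read. Tdgf1 (chr9:110939608-110946158), the NODAL co-receptor, was listed at 0 in all 3 embryo libraries and stood at 261 FPKM in wild-type Day 4 and 498 in T_Y88A Day 4. Nodal itself stood at 0.0344 FPKM in the embryo and 6.73 at Day 4, and Foxh1, its nuclear partner, at 7.90 and 27.7. The inhibitors Lefty1 and Lefty2, which NODAL induces, stood at 5.90 and 14.3 FPKM at Day 4, against 0.315 and 2.04 in the embryo. Cer1, a secreted inhibitor of NODAL, WNT and BMP from the anterior endoderm, stood at 0.510 FPKM in the embryo and 52.5 at Day 4.

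Eomes, the T-box factor that acts in the streak before the tail-end program, stood at 0.0129 FPKM in the wild-type embryo and 4.27 at Day 4. Its T_Y88A levels were 0.0523 in TS12, 0.113 in TS13 and 9.43 at Day 4. Gsc, a homeobox gene of the anterior streak, was listed at 0 in the wild-type embryo and stood at 2.63 FPKM at Day 4. Foxa2, a forkhead factor of the anterior streak, the node and the endoderm, stood at 1.85 and 28.7 FPKM. Mesp1, the factor of the first migrating mesoderm, stayed low at 1.32 and 0.237 FPKM, below the filter. Sox17, which specifies definitive endoderm, was level at 1.54 and 1.37 FPKM.

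Of 9 notochord and node genes compared, 6 were at least 2-fold higher at Day 4 (median 2.27), beside 14.2% of all genes. Among these genes, Nodal, Lefty1 and Foxa2 are also read in other lists. Noto, a homeobox gene needed for the notochord, stood at 2.97 and 5.87 FPKM, Shh, the signal of the notochord, at 4.06 and 1.77, and Foxj1, a regulator of motile cilia, at 0.531 and 27.4. Chrd, a BMP antagonist of the node, stood at 0.525 and 5.52 FPKM. Noto and Shh differed by less than 1 on the log2 scale, while Foxa2, Foxj1 and Chrd were higher in both Day 4 libraries than in any embryo library. Nog, a further BMP antagonist, stood at 1.71 FPKM in the wild-type embryo and 12.1 at Day 4, but at 3.70, 3.19 and 0.431 in T_Y88A TS12, TS13 and Day 4, where the order was reversed.

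Pluripotency genes were higher in culture by 1.79 in the median. Of 21 compared, 14 were at least 2-fold higher and 1 lower, beside 14.2% and 11.3% of all genes. Pou5f1 (chr17:35506032-35510777), which keeps pluripotency and fades as the epiblast is used up, stood at 24.3 FPKM in the wild-type embryo and 246 at Day 4. In T_Y88A it stood at 55.7 in TS12, 6.07 in TS13 and 303 at Day 4, so each Day 4 library exceeded each embryo library. Nanog stood at 6.52 and 62.1 FPKM in the wild-type pair, and Dnmt3b, the methyltransferase of the epiblast, at 30.4 and 115. Of genes of the naive state, which precedes implantation, Esrrb stood at 0.240 FPKM in the embryo and 3.27 at Day 4, and Tfcp2l1 at 0.174 and 2.48. Zfp42 was listed at 0 in the embryo and stood at 10.2 FPKM at Day 4. For these genes both Day 4 libraries lay above all 3 embryo libraries. Klf2 stood at 0.185 and 1.15 FPKM and Klf4 at 0.253 and 0.396, under the filter. The gene that was lower was Lin28b, an inhibitor of let-7 miRNAs, at 81.6 FPKM in the embryo and 25.8 at Day 4.

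Epithelial genes stood higher and mesenchymal genes lower in culture. Each of the 13 epithelial genes compared, of 14 listed, was at least 2-fold higher at Day 4 (median 2.94, beside 14.2% of all genes). For each of them both Day 4 libraries also lay above all 3 embryo libraries, beside 13.7% of all genes. Cdh1, the cadherin of epithelia that is shut off as cells leave the streak, stood at 4.64 FPKM in the wild-type embryo and 70.7 at Day 4, with 6.12, 3.06 and 72.3 in T_Y88A TS12, TS13 and Day 4. Epcam stood at 20.3 and 289.8 FPKM in the wild-type pair and Krt18 at 74.8 and 581. Of 14 mesenchymal genes, 11 were at least 2-fold lower and 0 higher (median -1.43), beside 11.3% and 14.2% of all genes. Cdh2, the cadherin that replaces Cdh1, stood at 46.0 and 6.45 FPKM, Pdgfra, a receptor of paraxial and other mesoderm, at 33.6 and 0.945, and Fn1, the matrix protein fibronectin, at 80.9 and 16.0. Vim was level at 137 and 144 FPKM. Snai1, which represses Cdh1, was low on both sides at 0.576 and 0.278.

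**Figure D4:**
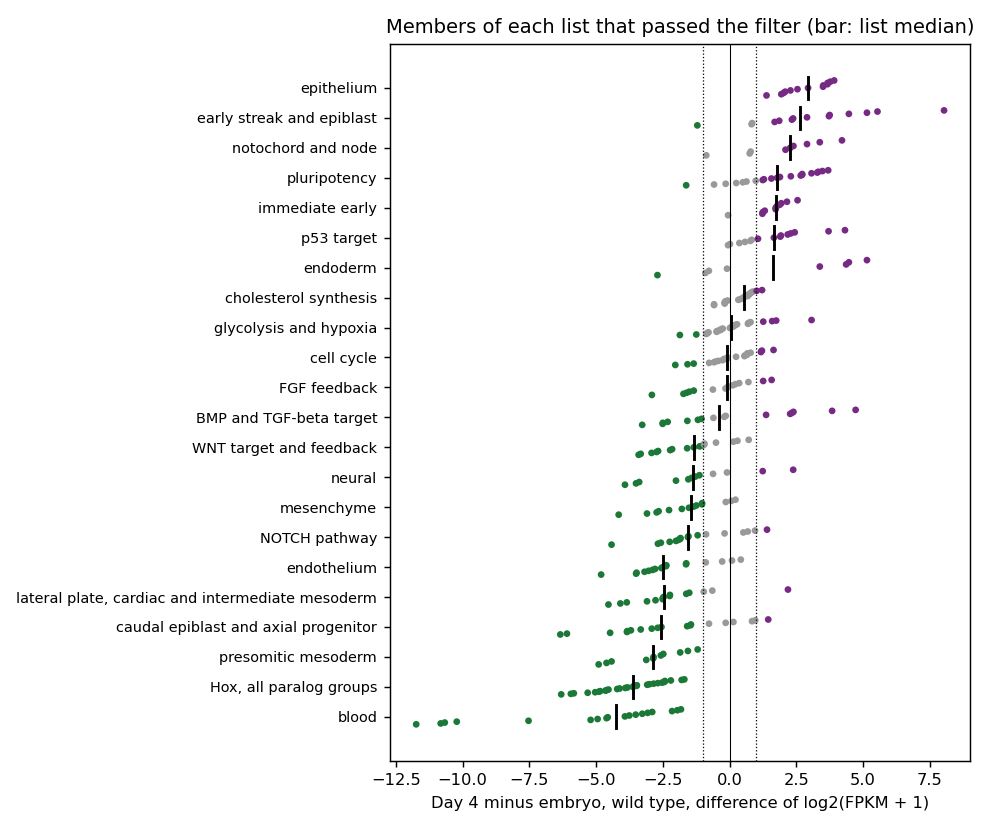
Each point is a list member that passed the filter, placed by its wild-type Day 4 minus embryo difference of log2(FPKM + 1); purple points are at least 2-fold higher at Day 4, green points at least 2-fold lower, grey points within 2-fold (dotted lines), and the black bar is the list median. Epithelium lies wholly to the right of the dotted lines, presomitic mesoderm, Hox and blood wholly to the left, and glycolysis and cell cycle around 0.

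The series also allows the stage to be read within the embryos, from the 2 T_Y88A libraries of TS12 and TS13, which the wild-type pair does not use. At least 2-fold apart between them were 65 genes higher in TS12 (0.588% of 11057) and 49 higher in TS13 (0.443%). With 1 library a stage, and in the mutant alone, this list of stage genes is rough. T itself and Tbx6 were among the TS12 genes, and the globin genes Hba-x and Hba-a2 among the TS13 genes. Stage and the make-up of the sorted cells therefore cannot be told apart in this list. The wild-type Day 4 minus embryo differences of the stage genes ask whether the culture leans to the earlier or the later of the 2 stages. Of the 59 TS12 genes compared, 20 (33.9%) were at least 2-fold higher at Day 4 and 18 (30.5%) at least 2-fold lower, with a median of 0.30. Of the 44 TS13 genes, 9 (20.5%) were higher and 19 (43.2%) lower, with a median of -0.67. Between settings these medians ranged from 0.16 to 0.59 for TS12 genes and from -0.86 to -0.31 for TS13 genes. Among the 10663 genes within 2-fold between the stages, 10.4% were higher and 11.3% lower (median -0.04).

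The TS12 genes thus split in both directions. Pou5f1, at 55.7 FPKM in TS12 and 6.07 in TS13, was higher at Day 4, and so were Wnt8a (27.9 and 7.84) and Foxh1 (9.94 and 2.74). Wnt3a, at 13.6 and 2.02, Cdx1, at 47.9 and 11.4, Sp5, at 11.7 and 2.79, and Fgf3, at 5.18 and 0.871, were higher in TS12 as well and were lower at Day 4 than in the wild-type embryo. Fst, which binds activin, stood at 16.1 and 2.36 FPKM in TS12 and TS13 and was level in the wild-type pair, at 8.46 and 8.54. Among the TS13 genes, Hoxc9 (8.73 FPKM in TS12 and 23.8 in TS13) and Pax3 (4.40 and 10.8), a factor of the dorsal neural tube and the somites, were lower at Day 4, where Hoxc9 was listed at 0 and Pax3 stood at 0.210. Mt1, a metallothionein, was higher at Day 4 (5.23 and 162 FPKM), and Igfbp5, which binds insulin-like growth factors, was lower (8.66 and 3.33). Hnrnpd and G3bp2 entered these lists because each was listed at 0 in 1 T_Y88A embryo library, so their stage differences measure no fold.

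**Figure D5:**
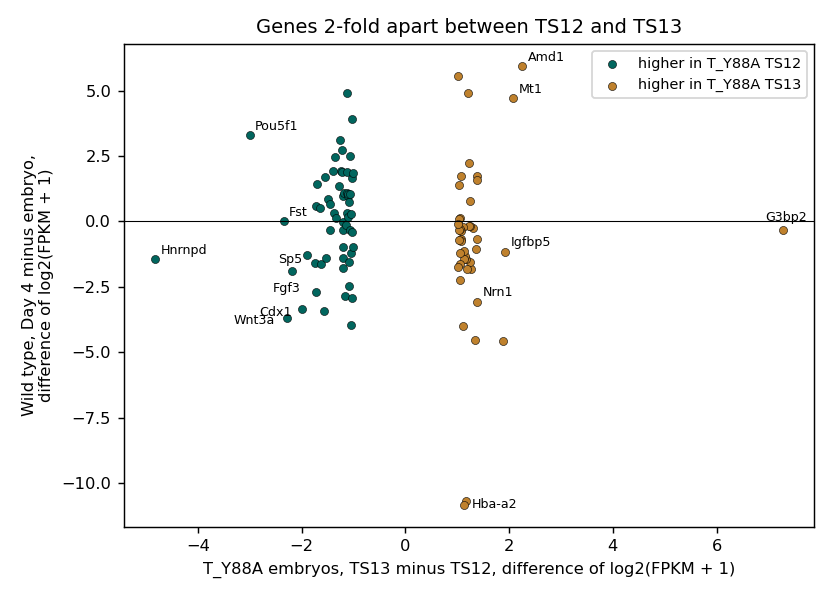
Each point is a gene at least 2-fold apart between the T_Y88A embryo libraries of TS12 and TS13 and compared in the wild-type pair, with the stage difference on the horizontal axis and the wild-type Day 4 minus embryo difference on the vertical axis, both of log2(FPKM + 1). The TS12 genes (left) spread above and below 0, with Pou5f1 above it and Wnt3a, Cdx1 and Fgf3 below; the outlying points at the far left and right, Hnrnpd and G3bp2, were listed at 0 in 1 library.

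The culture received WNT3A and FGF8, and known targets of each pathway were read in turn. Of 17 WNT targets and feedback genes compared, 11 were at least 2-fold lower at Day 4, beside 11.3% of all genes. In this list 0 genes were higher, beside 14.2%, and the median was -1.34. Axin2, the feedback inhibitor of WNT signalling, stood at 31.4 FPKM in the wild-type embryo and 4.07 at Day 4, with 41.4, 21.0 and 5.74 in T_Y88A TS12, TS13 and Day 4. Lef1 stood at 43.7 and 9.07 FPKM in the wild-type pair, and Notum, which inactivates WNT ligands, at 11.2 and 0.149. FGF feedback genes had a median of -0.08, with 2 higher and 5 lower among 15, beside 14.2% and 11.3% of all genes. Dusp6, the phosphatase of ERK, stood at 44.0 and 72.4 FPKM and Etv5 at 22.5 and 26.4, while Etv4 was lower, at 16.0 and 1.26.

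BMP and TGF-beta targets went both ways. Id1, Id2 and Id3, inhibitors of helix-loop-helix factors induced by BMP, stood at 17.5, 51.8 and 36.7 FPKM in the embryo and at 2.70, 4.47 and 11.6 at Day 4. Msx1 and Msx2, also BMP targets, stood at 5.06 and 9.80 in the embryo and 0.0721 and 0.902 at Day 4. The NODAL targets Lefty1 and Lefty2 were among the 6 genes of that list that were higher, and so were Ctgf and Cyr61. Against them stood 7 lower of 16 (median -0.40), while 14.2% of all genes were higher and 11.3% lower.

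In the retinoic acid pathway, the binding proteins differed most. Crabp2 stood at 285 FPKM in the wild-type embryo and 8.41 at Day 4, and Crabp1 at 107 and 1.66. Aldh1a2, the enzyme that makes retinoic acid in paraxial mesoderm, stood at 1.51 FPKM at Day 4, a difference of -2.48 on the log2 scale. The receptor gene Rarg was within 2-fold, at 33.6 and 23.0. Of 11 compared, 5 were at least 2-fold lower (median -0.77), beside 11.3% of all genes. Only 1, the retinal reductase gene Dhrs3, was higher, beside 14.2%. In the NOTCH pathway, 11 of 17 were lower, beside the same 11.3%, and 1, the receptor gene Notch2, was higher (7.10 and 20.4 FPKM). Among the lower genes, Dll1, Dll3, Lfng, Hes7 and Nrarp are also read in the presomitic list and Hes5 in the neural list. The median was -1.56 in the wild-type pair and -0.51 with the T_Y88A libraries. The receptor genes Notch1 and Notch3 were within 2-fold. Hes1, a NOTCH-responsive repressor that other pathways also induce, was within 2-fold, at 30.0 and 43.4.

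The embryo sort held RNA of blood and endothelium, and the culture hardly did. Summed over the 20 blood genes in the table, the level was 8507 FPKM in the wild-type embryo and 2.95 at Day 4, with 1429 and 2856 in T_Y88A TS12 and TS13 and 6.55 in T_Y88A Day 4. Each of the 18 compared was at least 2-fold lower at Day 4, beside 11.3% of all genes, and 7 of the 20 were listed at 0 there. In this list 0 genes reached 1 FPKM at Day 4, so the 18 passed on their embryo level alone and had to differ. The embryonic globin Hbb-bh1 stood at 3413 FPKM in the wild-type embryo and was listed at 0 in both Day 4 libraries, as were Hba-x and Hbb-y. Klf1, the erythroid factor that activates globin genes, stood at 14.1 and 0.121 FPKM. Hba-a1 and Hba-a2 are near-identical copies, at 184 and 1880.0 FPKM in the embryo, so the split between them is uncertain.

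Endothelial genes numbered 13 of 17 at least 2-fold lower at Day 4 and 0 higher (median -2.49), beside 11.3% and 14.2% of all genes. Kdr, the VEGF receptor of early vascular and other mesoderm, stood at 29.3 and 0.0809 FPKM, and Cdh5, the endothelial cadherin, at 10.6 and 0.0349. The summed level of the 18 endothelial genes was 181 FPKM in the embryo and 47.9 at Day 4. Flt1, Egfl7, Ets1 and Ramp2 were within 2-fold. Within the wild-type pair, the summed blood and endothelial levels were higher in the embryo library, as was each gene described as lower in culture. The part of blood and endothelial RNA in those differences was not tested.

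Neural genes were mixed. Of 12 compared of 24, 8 were at least 2-fold lower at Day 4 (median -1.35), beside 11.3% of all genes. The 2 that were higher, beside 14.2%, were Sox2 and Olig2. Sox2, shared by epiblast and neural progenitors, stood at 17.9 FPKM in the embryo and 43.8 at Day 4. Among T_Y88A libraries it stood at 30.7, 41.4 and 34.1 in TS12, TS13 and Day 4, so embryo and Day 4 ranges overlapped. Pax6, a neural tube factor, stood at 2.16 and 0.0815 FPKM in the wild-type pair, and Ncam1, an adhesion protein of neural and early mesodermal tissue, at 28.0 and 1.77. Sox1, the earliest marker of the neural plate, was under 1 FPKM on both sides.

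Markers of other cells that the culture could hold were mixed, with some defining markers at 0 and other list members well above it, such as Lgmn (17.0 FPKM in the embryo and 42.8 at Day 4) and Ifitm3 (10.6 and 34.1). Of 17 visceral and extraembryonic genes, the defining Afp and Apoa4 were listed at 0 in both wild-type libraries and Ttr stood at 0.0380 FPKM at Day 4. Apoe, which many cell types make, stood at 50.6 and 501 FPKM and, with Tdgf1, made up most of that list's summed 827 FPKM at Day 4 (93.3 in the embryo). Of the fibroblast markers that feeder cells would bring, Lum was listed at 0, Dcn stood at 0.0388 FPKM, Col1a1 at 0.163 and Col3a1 at 0.0876 at Day 4. Other members of that list had larger Day 4 values than these, with Pdgfrb at 1.12, Col1a2 at 0.569, S100a4 at 0.558, Thy1 at 0.415 and Postn at 0.264. Pdgfrb, Col1a2, Thy1 and Postn were nonetheless lower at Day 4 than in the embryo, while S100a4 was listed at 0 in the embryo. The contractile genes of the same list, Tagln (5.32 and 239 FPKM) and Cnn1 (listed at 0 in the embryo and at 27.6), stood high in culture. That list summed to 35.7 FPKM in the embryo and 282 at Day 4. Of 11 germ cell genes, Nanos3 was listed at 0 in both and Dppa3 stood at 9.84 and 18.8 FPKM, and the list summed to 156 and 117. Endodermal genes summed to 20.6 and 217 FPKM, most of the latter from Trh (3.96 and 101 FPKM), a hormone precursor also known from early endoderm and node, and from Cer1, Otx2 and Foxa2. Among surface ectoderm genes, Krt8 and Krt18 were higher at Day 4, while Tfap2a and Krt5 stood at 0.104 FPKM or less in the pair.

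General programs are read beside the 74.5% of all genes that were within 2-fold. Of 23 cell cycle genes, 16 were within 2-fold (median -0.08). The 4 that were higher, beside 14.2% of all genes, were Top2a, Ccnb1, Aurkb and Cdc20. The 3 that were lower, beside 11.3%, were Ccne1, Ccne2 and Rrm2. Counts this small and this near the shares over all genes are not read as a result. Cdc20 stood at 49.8 and 158 FPKM and Ccne2 at 29.1 and 6.35. Glycolysis and hypoxia genes had 23 of 29 within 2-fold (median 0.05), and cholesterol synthesis genes 19 of 21 (median 0.52). Amino acid stress response genes had 11 of 15 within 2-fold (median -0.31).

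p53 targets and immediate early genes stood higher in culture. Of 15 p53 targets, 9 were at least 2-fold higher at Day 4 and 0 lower (median 1.66), beside 14.2% and 11.3% of all genes. Trp53inp1, a p53-induced nuclear protein, stood at 5.58 and 131 FPKM and Ccng1 at 30.9 and 143, while Cdkn1a, the cell cycle inhibitor, stood at 3.59 and 5.84. Of 11 immediate early genes, 10 were higher (median 1.73), beside the same 14.2%. Fos stood at 0.964 and 7.71 FPKM and Jun at 5.53 and 20.6. Both Day 4 libraries lay above all 3 embryo libraries for Fos and for Jun.

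Imprinted genes, which are expressed from 1 parental copy, had 11 of 30 at least 2-fold lower at Day 4 and 2 higher (median -0.54). Of all genes, 11.3% were lower and 14.2% higher. Igf2, the fetal growth factor, stood at 170.1 FPKM in the embryo and 21.96 at Day 4, Mest at 132 and 8.42, and Nnat at 136 and 24.4. Peg3, a zinc finger gene, was higher at 84.1 and 179 FPKM, and so was Snrpn, at 29.4 and 62.2. H19, a noncoding RNA, stood at 1154 FPKM in the wild-type embryo and 346 at Day 4, but at 16.3, 14.9 and 234 in T_Y88A TS12, TS13 and Day 4. Of 6 sex-linked genes, Eif2s3y on the Y chromosome stood at 31.1 and 89.9 FPKM, and Xist at 0.147 and 0.795.

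Ranked over all genes whose 2 Day 4 libraries lay on 1 side of the 3 embryo libraries, the 12 highest at Day 4 were Tdgf1, Gbp2, Fgfbp1, Gbp2b, Psmb8, Fgf5, Bst2, Tagln, Enpp2, Ltb, Cer1 and 4930500J02Rik. Fgfbp1, a secreted carrier of FGFs, stood at 1.34 FPKM in the wild-type embryo and 247 at Day 4, with 0.500, 0.198 and 162 in T_Y88A TS12, TS13 and Day 4. Enpp2, the enzyme that makes lysophosphatidic acid, stood at 0.126 and 41.1 FPKM in the wild-type pair, and Ltb, a cytokine of the tumour necrosis factor family, at 0.417 and 49.9.

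The 12 lowest were the globins Hbb-bh1, Hba-a2, Hba-x, Hbb-y and Hba-a1, then Amd2, Nolc1, Mira, Cdx4, Hoxc8, Cdx2 and 2700086A05Rik. Nolc1 was listed at 0 in wild-type Day 4 but stood at 109, 87.0, 90.1 and 47.9 FPKM in the wild-type embryo, T_Y88A TS12, T_Y88A TS13 and T_Y88A Day 4. Cnot1 showed the same pattern of a single 0 in wild-type Day 4, and such a 0 can be a failed estimate. Amd2 has a near copy, Amd1, which stood at 0.0110 FPKM in the wild-type embryo and 61.1 at Day 4, the reverse of Amd2 (159 and 0.00899). The split between these copies is therefore uncertain.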

How the data were processed

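RNA was sequenced from T-positive cells sorted into lysis buffer, with ScriptSeq v2 low-input libraries, per the labels' protocols. The authors deposited 1 table of FPKM for 5 libraries, which was used as it stands. Per the submitters' processing notes, the series used TopHat2 2.0.8, Cufflinks 2.1.1, bedtools 2.23.0 and build mm10, without roles given. The sources used here do not say whether counting used strand, so antisense overlaps cannot be separated. The 7 chromatin samples were not analysed here, and some genes are not reported here.

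Each of the 5 columns was given its sample by the number, stage or genotype in the labels, and 0 columns were left unused. Of 23421 symbols, 21649 matched the RefSeq gene table of GRCm38.p6 by symbol and 23246 with synonyms, and coordinates and promoters come from RefSeq tables of that build. Small RNA symbols (792, of which 78 reached the filter) were dropped because FPKM of short transcripts are unstable, and 11663 symbols were under it.

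Values were taken as log2(FPKM + 1) for genes that averaged 1 FPKM or more over the pair, with a difference of at least 1 called 2-fold. FPKM keep no read totals, so no interval or detection limit can be given. Relative depth is the commonest ratio over 193 genes below 0.06 FPKM, shared within 0.03 on the log2 scale by 16.6% of them. An exact 0 can be a failed estimate. Of the genes compared, 115 were listed at 0 in the embryo library and 47 at Day 4, and their log2 differences measure no fold. The ribosomal RNA precursor Rn45s ranged from 1308 FPKM in T_Y88A TS12 to 6061 in T_Y88A Day 4, and stood at 2537 and 1801 in the wild-type embryo and Day 4 libraries.

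The lists and their members were chosen with earlier results of these data known. Named genes are T, list members by role, the 12 largest differences in each direction among genes whose libraries do not overlap, and genes with opposite differences in T_Y88A. The alternatives were pseudocounts of 0.1 and 0.5, no filter, a mean of 5 FPKM, a 4-fold limit, quantile and upper-quartile scaling, small RNA genes kept, and the T_Y88A libraries in place of the wild-type pair. Python 3.11.15, pandas 2.3.3, numpy 2.4.6 and matplotlib 3.10.9 were used.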

Additional observations from a re-analysis of the deposited data

Results flagged for a closer look

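Of the genes at least 2-fold apart between the wild-type embryo and Day 4 libraries, 4 were at least 2-fold apart in the opposite direction between the T_Y88A embryos and T_Y88A Day 4. With 1 wild-type library a side, the difference between the genotypes was not tested. H19, a maternally expressed noncoding RNA, stood at 1154 FPKM in the wild-type embryo, 346 in wild-type Day 4, 16.3 in T_Y88A TS12, 14.9 in T_Y88A TS13 and 234 in T_Y88A Day 4. Its difference was -1.74 in wild type and 3.82 in T_Y88A, and the wild-type embryo library was the highest of the 5. Tcf15 had a difference of -1.18 in wild type and 1.503 in T_Y88A, and Nog one of 2.27 and -1.63. The predicted gene Gm3258 stood at 1.62 and 5.43 FPKM in the wild-type embryo and Day 4 libraries, a difference of 1.29, against -1.21 in T_Y88A (6.28, 3.90 and 1.58 FPKM in TS12, TS13 and Day 4). For Tcf15, Nog and Gm3258 the highest of the 5 levels was 12.1 FPKM, in Nog at wild-type Day 4.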

How the results depend on the processing

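No paired analysis was possible because the labels give no replicate numbers and each side has 1 library. Leaving out a replicate was not possible for the same reason. Scalings moved the median of all genes by at most 0.06 on the log2 scale. Of 432 values for single genes and for the lists not named next, 340 moved by less than 1.5 times and 87 by more; another 5, at least 2-fold as reported, reversed and are given below. Values under 2-fold changed sign too: surface ectoderm to 2.74 at a mean of 5 FPKM or more, visceral and extraembryonic to -0.13 and cell cycle to 0.20 under quantile scaling, and, with the T_Y88A libraries, BMP and TGF-beta targets to 0.05, amino acid stress to 0.49, cell cycle to 0.0061, sex-linked genes to -0.85 and T to -0.41. The medians of the TS12 and TS13 genes kept their signs but ranged from 0.16 under quantile scaling to 0.59 at a mean of 5 FPKM or more for TS12, and from -0.86 under quantile scaling to -0.31 at that mean for TS13. The T_Y88A values change the genotype along with the library.

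At a pseudocount of 0.1 the medians were 5.25 for early streak and epiblast, 3.04 for pluripotency, -3.70 for presomitic mesoderm, -6.35 for blood, -4.50 for endothelium, and -6.47, -7.04 and -4.55 for Hox groups 1 to 4, 5 to 9 and 10 to 13. At 0.5 they were 3.49 for early streak, -4.95 for blood, -3.25 for endothelium and -4.63, -4.93 and -2.54 for the same Hox groups. A smaller pseudocount widens the differences of genes at low levels by construction. With no filter, presomitic mesoderm had -2.17 and Hox groups 10 to 13 had -0.97. With a mean of 5 FPKM or more, 926 genes were higher and 841 lower, or 903 and 811 with both Day 4 libraries beyond all 3 embryo libraries; the medians were 4.11 for early streak, -4.94 for blood and -4.36 for Hox groups 1 to 4. There the feeder fibroblast and smooth muscle list reversed to 4.84, since fewer members passed. At 4-fold, 464 genes were higher and 301 lower. With the T_Y88A libraries in place of the wild-type pair, the medians were 3.62 for early streak, -1.89 for caudal epiblast, -2.03 for presomitic mesoderm, -1.99 for blood, -1.36 for endothelium and -0.64 for Hox groups 10 to 13. Reversed there were Tcf15 at 1.503, Nog at -1.63, H19 at 3.82 and Gm3258 at -1.21; the cause was not tested. Depth is unknown, so low levels carry an error that cannot be given.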

Other observations

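Genes of the interferon response and of antigen processing stood higher in culture. This list, like the next 2, was chosen after its values were seen, so its counts support nothing by themselves. Of 27 compared, 24 were at least 2-fold higher at Day 4 and 0 lower (median 3.15), beside 14.2% of all genes. Gbp2, an interferon-induced GTPase, was listed at 0 in all 3 embryo libraries and stood at 179 FPKM in wild-type Day 4 and 63.5 in T_Y88A Day 4. Psmb8, a subunit of the immunoproteasome, stood at 0.157 FPKM in the wild-type embryo and 55.8 at Day 4. The transcription factor Irf1 stood at 1.89 and 78.8 FPKM, and the class I antigen gene H2-K1 at 2.74 and 78.9. Other interferon-induced genes stayed low in culture, with Isg15 at 2.95, Rsad2 at 2.11, Irf7 at 0.802 and Mx1 at 0.742 FPKM.

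Of 20 actin, SRF and YAP target genes compared, 16 were at least 2-fold higher at Day 4 and 0 lower (median 2.14). The shares over all genes, here and for the next list, were 14.2% higher and 11.3% lower. Cyr61, a matrix protein induced by YAP, stood at 8.15 FPKM in the wild-type embryo and 240.5 at Day 4, with 4.13, 6.68 and 226 in T_Y88A TS12, TS13 and Day 4. Thbs1 stood at 0.841 and 21.7 FPKM in the wild-type pair and Tpm1, a tropomyosin, at 289.6 and 1753. Of 14 metal, oxidative and heat stress genes compared, 7 were higher and 1 lower (median 0.97). Txnip, an inhibitor of thioredoxin, stood at 9.65 and 281 FPKM and Mt2, a metallothionein, at 3.20 and 125. The heat shock genes Hspa1a and Hspa1b stayed under 1 FPKM in both libraries, and Hspa5, a chaperone of the endoplasmic reticulum, was lower, at 765 and 304. For Gbp2, Psmb8, Irf1, Cyr61, Thbs1 and Txnip, both Day 4 libraries lay above all 3 embryo libraries.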
